A study of Mus musculus with 4 samples.

Results

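The enzymes described here build and cap mucin-type O-glycans and related chains. They are the protein-coding genes in the deposited table whose symbols begin with Galnt, C1galt1, Gcnt, B3gnt, B3galt, B4galt, B4galnt, Fut, St3gal, St6gal, St6galnac or St8sia and that had at least 1 count in any library. The rule reads gene names and the presence of counts, not the response to treatment. It gave 70 of the 26144 genes with counts, in 12 classes, under 69 symbols because St6galnac2 was listed as 2 overlapping genes. RNA sequencing libraries were made from intestinal organoids, self-organising epithelial cultures, of C57BL/6 mice with the wild type genotype at an age of 8 to 12 weeks. All 4 libraries came from organoids 36 hours after 8 Gy of irradiation, 2 given vehicle and 2 given SGC-CBP30, a small molecule that binds the bromodomains of the acetyltransferases CBP and p300. The labels state neither the gut segment, the dose or duration of the compound, nor whether replicates were separate cultures or animals, so p-values reflect only how far these libraries scatter, which may be technical. The treatment label of SGC-CBP30 replicate 2 reads SGC-CBP31, and the library was grouped by its title.

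Mucin-type O-glycosylation begins in the Golgi when a polypeptide GalNAc-transferase places N-acetylgalactosamine on a serine or threonine. Core enzymes add the next sugars, N-acetylglucosaminyl- and galactosyltransferases extend and branch the chain, and fucosyl- and sialyltransferases cap it. In the gut these glycans make up most of the mass of secreted mucins and are part of the glycocalyx on the microvilli. Several enzymes of the same families act on N-glycans, glycolipids or glycosaminoglycans instead, and their substrates are given with each gene.

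Libraries held 16433117 to 18087250 counts, and the members together took 0.362% to 0.364% of them in vehicle and 0.336% to 0.337% in SGC-CBP30 libraries. Mitochondrially encoded transcripts took 6.55% and 6.73% of counts in vehicle and 5.25% and 5.99% in SGC-CBP30. The 7 fixed epithelial markers, among them Epcam and Cdh1, were all present, with summed levels of 7390 and 7439 CPM (counts scaled by library size and composition) in vehicle and 9355 and 8671 CPM in SGC-CBP30. Markers of other tissues were near 0: the 5 fibroblast markers summed to 0.396 and 0.564 against 2.47 and 1.08 CPM, the 5 immune markers with counts to 3.96 and 3.32 against 1.35 and 1.37 CPM, mostly Csf1r, and the 3 endothelial markers to 1.3 and 1.003 against 1.23 and 1.59 CPM. Col1a1, Col1a2 and Cd3e were at 0 in both vehicle libraries. Of the epithelial markers Krt8, Krt18 and Krt19 rose. Csf1r, a macrophage marker and the single immune marker tested, fell from 53 and 38 to 13 and 11 counts (log2 fold change -1.95 ± 0.43, edgeR adjusted p = 0.00106). Adgre1, also a macrophage marker, had 0 and 5 counts in vehicle and 0 and 2 in SGC-CBP30. Lyz2 had 10 and 4 against 3 and 6 counts, and Ptprc 7 and 6 against 6 and 5, all too few to be tested. The part of these markers in the enzymes' changes was not tested.

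Of the 70 members, 51 had enough counts to be tested, 5 of them rose, 10 fell and 36 did not pass the threshold (an adjusted p under 0.05 in edgeR's quasi-likelihood test, with Benjamini-Hochberg adjustment over 14684 genes). The called share of 29.4% lay beside 30.0% of all tested genes, with 13.6% of all genes higher and 16.3% lower. The enzymes as a set therefore changed about as often as any gene, and what follows concerns which of them changed. Of these, 5 falls and 1 rise were at least 1.5-fold. The share of all tested genes past that fold was not counted, so this split cannot be set against it. The 5 falls were St3gal1, B4galt5, B3gnt7, B4galnt3 and St3gal4, and the rise was B3gnt9, a gene of few counts. The median log2 fold change of the tested members was -0.050, against 0.0096 over all tested genes, and it was 0.023 with library totals alone as the scale. In all genes that scale moved the split of calls from 2004 higher and 2397 lower to 2907 higher and 1924 lower, and among the members to 8 higher and 10 lower. In bulk libraries, fewer cells of a type and less RNA per cell cannot be told apart.

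**Figure D1:**
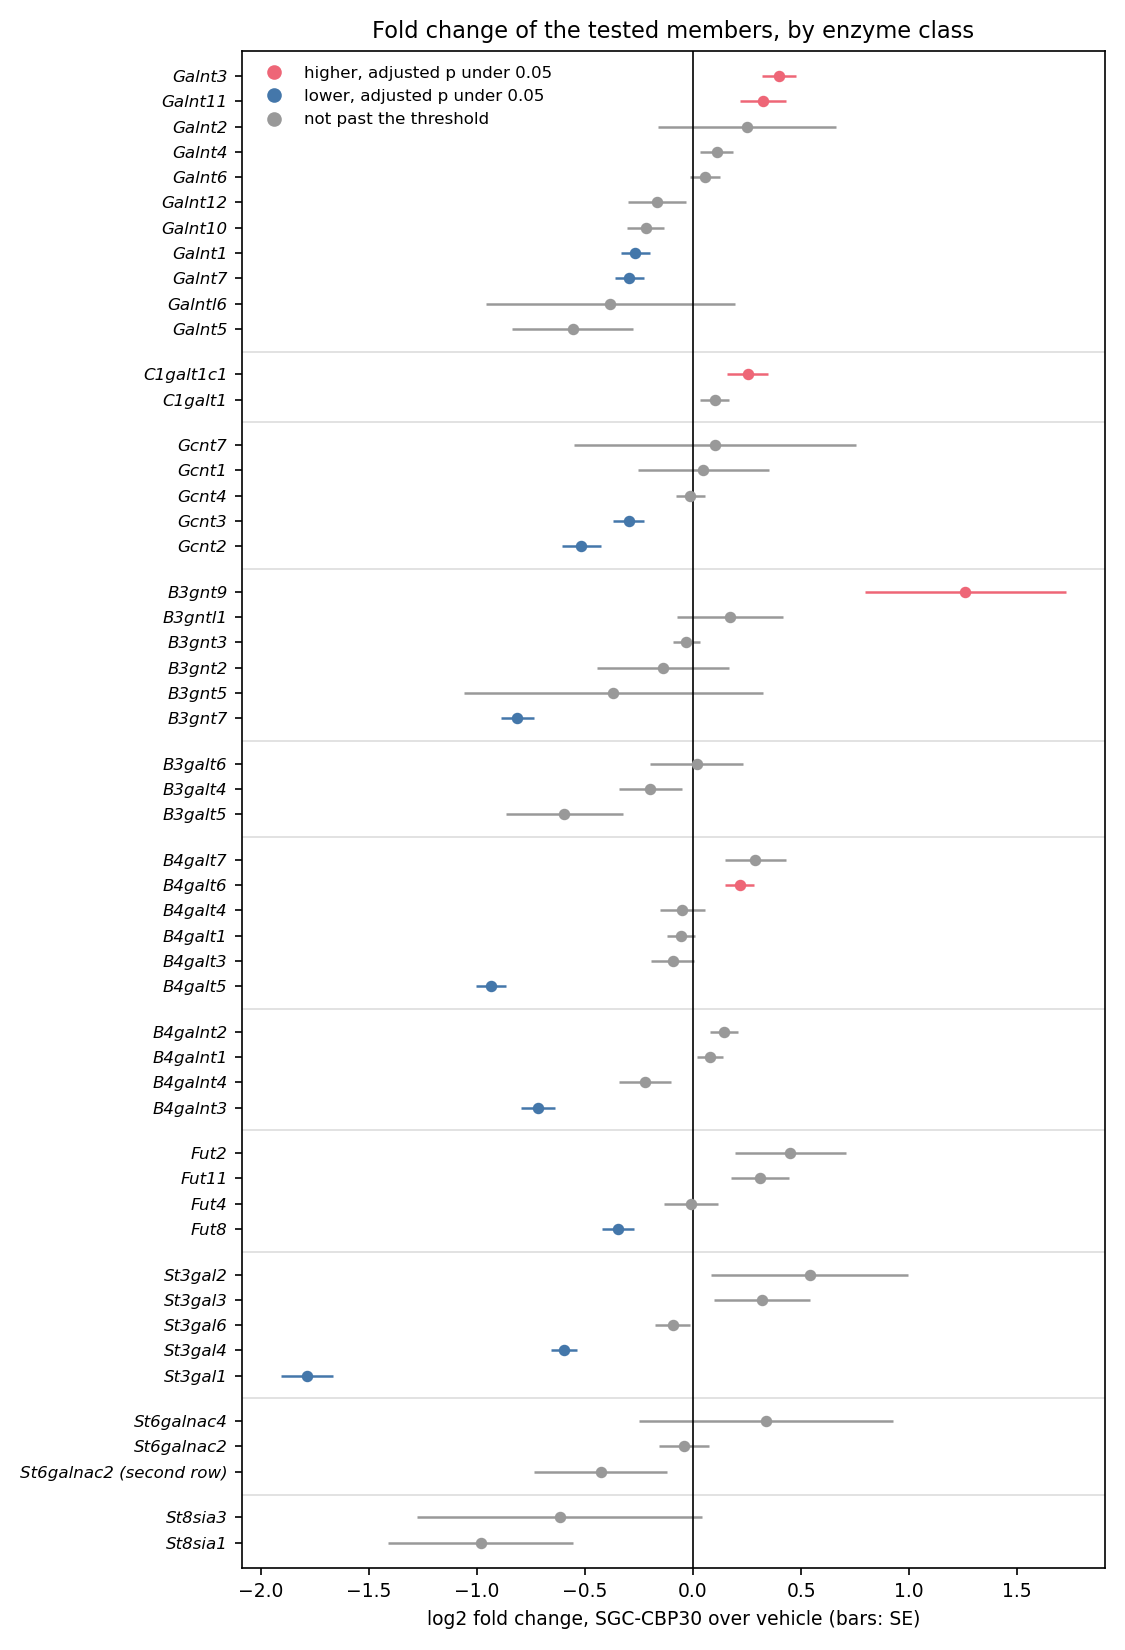
Change from vehicle to SGC-CBP30 on the log2 scale (x axis) for the 51 tested members, grouped by enzyme class. Points are edgeR estimates, bars their standard errors, red and blue mark the 5 higher and 10 lower members past the threshold. St3gal1 at -1.78 lies farthest to the left, and the widest bars belong to members with few counts.

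The windows below are the 250 bases before the RefSeq start of the 4 members past the threshold that had a single RefSeq start and fewer than 10 exonic bases in the window, which left members that fell. They show the DNA ahead of those RefSeq starts. The St3gal4 window lies wholly inside the longer gene whose reads were counted, from 2154 bases after that gene's start. In the B4galt5 window 5 bases lie inside its counted gene. The B4galnt3 and Galnt7 windows end 338 and 23 bases before the starts of their counted genes. Capitals mark the GC box, the letters GGGCGG on either strand, the motif bound by Sp family factors. Sequences run 5′ to 3′ along the gene's strand, from RefSeq on GRCm38.p6, all on the minus strand, for B4galt5 at chr2:167349179-167349428, B4galnt3 at chr6:120294898-120295147, St3gal4 at chr9:35116865-35117114 and Galnt7 at chr8:57653056-57653305.
B4galt5: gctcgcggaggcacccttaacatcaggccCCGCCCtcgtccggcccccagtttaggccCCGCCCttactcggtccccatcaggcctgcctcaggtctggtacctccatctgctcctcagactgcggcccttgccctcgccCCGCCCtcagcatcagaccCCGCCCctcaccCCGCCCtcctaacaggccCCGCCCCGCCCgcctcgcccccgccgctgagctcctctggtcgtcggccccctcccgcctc
B4galnt3: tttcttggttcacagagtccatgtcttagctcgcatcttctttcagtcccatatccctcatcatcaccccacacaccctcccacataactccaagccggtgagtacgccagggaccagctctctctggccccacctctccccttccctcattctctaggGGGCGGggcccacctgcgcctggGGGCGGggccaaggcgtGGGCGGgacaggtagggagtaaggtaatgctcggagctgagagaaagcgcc
St3gal4: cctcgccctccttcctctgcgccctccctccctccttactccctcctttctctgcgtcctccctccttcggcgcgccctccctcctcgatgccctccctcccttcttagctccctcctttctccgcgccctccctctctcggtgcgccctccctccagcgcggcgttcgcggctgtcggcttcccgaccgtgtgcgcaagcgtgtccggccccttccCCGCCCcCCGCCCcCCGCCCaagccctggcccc
Galnt7: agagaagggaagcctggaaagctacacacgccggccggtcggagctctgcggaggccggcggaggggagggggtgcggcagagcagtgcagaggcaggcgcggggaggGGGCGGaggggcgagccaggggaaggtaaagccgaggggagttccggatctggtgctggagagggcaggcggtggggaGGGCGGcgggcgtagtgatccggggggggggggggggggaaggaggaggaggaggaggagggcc

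The GC box occurred 7 times in the B4galt5 window, where 2 matches overlap by a base, 3 times each in those of B4galnt3 and St3gal4 and 2 times in that of Galnt7. It was in 32.7% of 32851 windows of the same length in the RefSeq table. GC content was 73.2%, 60.8%, 72.8% and 73.6% in the same order, against a median of 52.4% and a 90th percentile of 69.2% over all windows. The GC box holds only G and C, and the 32.7% was not matched for GC content, so no enrichment can be read from it. CREB, the factor after which CBP is named, binds the cyclic AMP response element. Neither that element, TGACGTCA (1.55% of all windows), nor its half-site TGACG (17.8%), the AP-1 motif TGANTCA (6.75%) or the GATA motif AGATAA (9.99%) was found on either strand of the 4 windows, which says only that these letters are not in those bases. Entries existed for 50 of the 70 members, and counts were summed per gene, so they do not show which start was used.

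The GalNAc-transferases, which start O-glycans, moved in both directions. Of 16 members 11 were tested, 2 rose (Galnt3 and Galnt11), 2 fell (Galnt1 and Galnt7) and 7 did not pass the threshold. Galnt3 (ENSMUSG00000026994, GRCm38 chr2:66082766-66124994, minus strand), whose product also glycosylates the phosphate hormone FGF23, had 60.5 and 56.5 CPM in vehicle and 77.2 and 77.0 CPM in SGC-CBP30. Both SGC-CBP30 libraries lay above both vehicle libraries, a log2 fold change of 0.40 ± 0.08 (SE; edgeR adjusted p = 0.00031), or 1.32-fold. Galnt3 was the only rise among the members that passed the threshold in every alternative run.

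Galnt1, a broadly expressed initiating enzyme gene, had 188 and 176 CPM in vehicle and 144 and 158 CPM in SGC-CBP30. It fell by 0.27 ± 0.07 on the log2 scale, and the call was lost without vehicle replicate 1 (edgeR adjusted p = 0.164). Galnt7, whose product prefers peptides that already carry a GalNAc, had 150.2 and 153 CPM in vehicle and 122 and 125 CPM in SGC-CBP30. It fell by 0.29 ± 0.07, and did not pass once vehicle replicate 2 was left out (edgeR adjusted p = 0.0642). In neither gene did the groups overlap.

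Galnt11 had 26.3 and 26.4 CPM in vehicle and 31.2 and 34.97 CPM in SGC-CBP30. It rose by 0.33 ± 0.11 (edgeR adjusted p = 0.0229), but the adjusted p was 0.0887 in DESeq2 and 0.107, 0.0933 and 0.152 without vehicle replicates 1 and 2 and SGC-CBP30 replicate 2. The most abundant initiating enzyme gene per length was Galnt6, at 50.2 ± 2.68 FPKM (a level scaled by gene length and sequencing depth) in vehicle and 52.2 ± 4.93 FPKM in SGC-CBP30 (SD, n = 2 each). Its log2 fold change of 0.057 ± 0.069 did not pass the threshold, and was 0.15 without SGC-CBP30 replicate 2 (edgeR adjusted p = 0.0266). Galnt4, Galnt10 and Galnt12, at 6.98 to 15.2 FPKM in either group, had log2 fold changes of 0.11 ± 0.08, -0.22 ± 0.08 and -0.17 ± 0.13. Galnt10 passed the threshold without SGC-CBP30 replicate 1 (edgeR adjusted p = 0.0240) and among genes with 50 or more counts in 2 libraries (0.0333).

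Galnt2, otherwise a widely expressed initiating enzyme, was low, with 40 and 17 counts in vehicle and 40 and 29 counts in SGC-CBP30. In the GENCODE M21 annotation 90% of its exonic bases lie in the same-strand gene Gm20388, which had no counts in any library, and how shared reads were treated is not given in the sources used here. Its count is therefore uncertain. Galnt5 and Galntl6 had log2 fold changes of -0.56 ± 0.28 and -0.38 ± 0.58. Galnt13, Galnt15, Galnt16, Galnt18 and Galnt9 had at most 5 counts in any library and were not tested. Summed over the class, levels were 162 ± 0.272 FPKM in vehicle and 157 ± 2.46 FPKM in SGC-CBP30.

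The core 1 pair was measured closely. C1galt1, which makes the core 1 disaccharide, had 139 and 143 CPM in vehicle and 147 and 156 CPM in SGC-CBP30, a log2 fold change of 0.10 ± 0.07 that did not pass the threshold (edgeR adjusted p = 0.282). Scaled by library totals it was 0.17 (edgeR adjusted p = 0.0469). C1galt1c1 encodes Cosmc, the chaperone that C1galt1 needs to fold. It had 34.0 and 34.2 CPM in vehicle and 41.6 and 39.7 CPM in SGC-CBP30, and rose by 0.25 ± 0.10 (edgeR adjusted p = 0.0469). That call sat at the threshold: the adjusted p was 0.153 in DESeq2, 0.0548 among genes with 50 or more counts in 2 libraries, 0.209 and 0.184 without vehicle replicates 1 and 2, and 0.145 without SGC-CBP30 replicate 1. Per length both genes were alike, at 23.0 ± 0.485 and 23.4 ± 0.175 FPKM in vehicle.

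Branching enzymes of the Gcnt class fell or did not pass the threshold: of 5 tested, 2 fell. Gcnt2, which makes the branches of the I blood group antigen, had 49.9 and 54.7 CPM in vehicle and 35.7 and 37.3 CPM in SGC-CBP30. The groups did not overlap, and the gene fell by 0.52 ± 0.09 (edgeR adjusted p = 9.8e-05). Gcnt3, the mucin-type enzyme that makes core 2 and core 4 branches, had 132 and 122 CPM in vehicle and 104 and 102 CPM in SGC-CBP30. It fell by 0.30 ± 0.07 (edgeR adjusted p = 0.00198), and did not pass once vehicle replicate 1 was left out (adjusted p = 0.125). Gcnt4, a core 2 enzyme gene of similar level, had 131 and 129 CPM in vehicle and 126 and 133 CPM in SGC-CBP30, a difference of -0.013 ± 0.067 that was smaller than the spread between replicates. The ratio of Gcnt4 to Gcnt3 in FPKM was 0.841 and 0.896 in vehicle and 1.02 and 1.10 in SGC-CBP30. Gcnt1, the other core 2 enzyme, had only 43 to 59 counts in a library, and Gcnt7 had 7 to 12.

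Of the N-acetylglucosaminyltransferases of the B3gnt class, 6 of 8 were tested and B3gnt7 fell most. B3gnt7 (ENSMUSG00000079445, GRCm38 chr1:86302832-86307305, plus strand) extends sulfated poly-N-acetyllactosamine chains. It had 90.4 and 94.8 CPM in vehicle and 52.5 and 52.9 CPM in SGC-CBP30, so the replicates of each group lay close together and far from the other group. It fell by 0.81 ± 0.08 on the log2 scale, or 1.76-fold (edgeR adjusted p = 6.9e-09). B3gnt3, which extends core 1 chains, led the class and did not move beyond its spread, with 239 and 252 CPM in vehicle and 246 and 235 CPM in SGC-CBP30 (log2 fold change -0.031 ± 0.062). The FPKM of B3gnt3 was 3.57 and 3.60 times that of B3gnt7 in vehicle and 6.34 and 6.01 times in SGC-CBP30, which restates the fall of B3gnt7.

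B3gnt9 rose by 1.26 ± 0.46 (edgeR adjusted p = 0.0424) on 13 and 12 counts in vehicle and 26 and 36 counts in SGC-CBP30. It did not pass in DESeq2 (adjusted p = 0.15) or with any 1 of the 4 libraries left out (edgeR adjusted p = 0.0591 to 0.275). Its exons overlap those of D230025D16Rik on the other strand over 16.5% of bases, a gene with 235 to 327 counts. B3gnt2, a main enzyme of poly-N-acetyllactosamine, had 40 to 59 counts, and 58.6% of its exonic bases are shared with the same-strand gene Gm28048, which had no counts. B3gntl1 and B3gnt5 had log2 fold changes of 0.17 ± 0.24 and -0.37 ± 0.69. B3gnt6, the core 3 enzyme gene, had 6, 4, 9 and 14 counts in the order vehicle 1 and 2, SGC-CBP30 1 and 2, and B3gnt8 had 9, 8, 5 and 12, and neither was tested.

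The β1,3-galactosyltransferases were few and none of 3 tested passed the threshold. B3galt4, which makes the ganglioside GM1, led the class with 8.63 ± 0.463 FPKM in vehicle and 7.52 ± 0.328 FPKM in SGC-CBP30 (SD, n = 2 each; log2 fold change -0.20 ± 0.15). B3galt5, the enzyme gene of type 1 chains, had 78 and 82 counts in vehicle and 61 and 48 counts in SGC-CBP30, a log2 fold change of -0.59 ± 0.27 (edgeR adjusted p = 0.101). B3galt6, an enzyme of the glycosaminoglycan linker, had 0.017 ± 0.215, and B3galt2 had 1 to 4 counts.

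Among the β1,4-galactosyltransferases the pair that makes lactosylceramide, the precursor of most gangliosides, moved in opposite directions. B4galt5 (ENSMUSG00000017929, GRCm38 chr2:167298444-167349183, minus strand) had 157 and 153 CPM in vehicle and 84.1 and 78.3 CPM in SGC-CBP30. Its groups lay far apart and it fell by 0.93 ± 0.07, or 1.91-fold (edgeR adjusted p = 1.2e-10). B4galt6 had 217 and 221 CPM in vehicle and 236 and 272 CPM in SGC-CBP30. It rose by 0.22 ± 0.07 (edgeR adjusted p = 0.0164), but by 0.11 without SGC-CBP30 replicate 2 (adjusted p = 0.113), and it did not pass either with vehicle replicate 1 left out (0.185) or with replicate 2 left out (0.127). Per length the pair stood level in vehicle, with a ratio of B4galt6 to B4galt5 of 1.03 and 1.07, and apart in SGC-CBP30, with 2.09 and 2.58.

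B4galt1, the main galactosyltransferase of N-acetyllactosamine, was steady at 152 and 151 CPM in vehicle and 146 and 145 CPM in SGC-CBP30 (log2 fold change -0.057 ± 0.065). B4galt3 and B4galt4 had -0.095 ± 0.098 and -0.050 ± 0.103, and Ppox, which lies opposite B4galt3 over 14.5% of its exonic bases, fell by 0.39. B4galt7, the first galactosyltransferase of the glycosaminoglycan linker, had 0.29 ± 0.14 and passed the threshold without SGC-CBP30 replicate 2 (log2 fold change 0.41, edgeR adjusted p = 0.0466). B4galt2 had 7 to 11 counts and was not tested.

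All 4 N-acetylgalactosaminyltransferases of the B4galnt class were tested and B4galnt3 fell. B4galnt3 (ENSMUSG00000041372, GRCm38 chr6:120203073-120294559, minus strand) makes the LacdiNAc unit, in which N-acetylgalactosamine takes the place of galactose. It had 78.4 and 74.0 CPM in vehicle and 47.5 and 45.2 CPM in SGC-CBP30, with no overlap, and fell by 0.72 ± 0.08, or 1.64-fold (edgeR adjusted p = 1.3e-07). B4galnt4, which makes the same unit, was lower in both SGC-CBP30 libraries, at 19.4 and 19.3 against 21.3 and 23.8 CPM, but its log2 fold change of -0.22 ± 0.12 did not pass the threshold (edgeR adjusted p = 0.180). B4galnt2, which adds the last sugar of the Sda antigen, stood second among all members, at 101 ± 2.02 FPKM in vehicle and 112 ± 2.59 FPKM in SGC-CBP30. Its log2 fold change was 0.14 ± 0.06 (edgeR adjusted p = 0.0909), and it passed when scaled by library totals (0.22, edgeR adjusted p = 0.0094) and when SGC-CBP30 replicate 1 was dropped (0.0187). B4galnt1, the GM2 ganglioside enzyme gene, had 61.4 ± 2.12 and 64.9 ± 0.132 FPKM (log2 fold change 0.079 ± 0.061). The B4galnt2 to B4galnt3 ratio in FPKM went from 4.86 and 5.27 to 8.81 and 9.57.

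**Figure D2:**
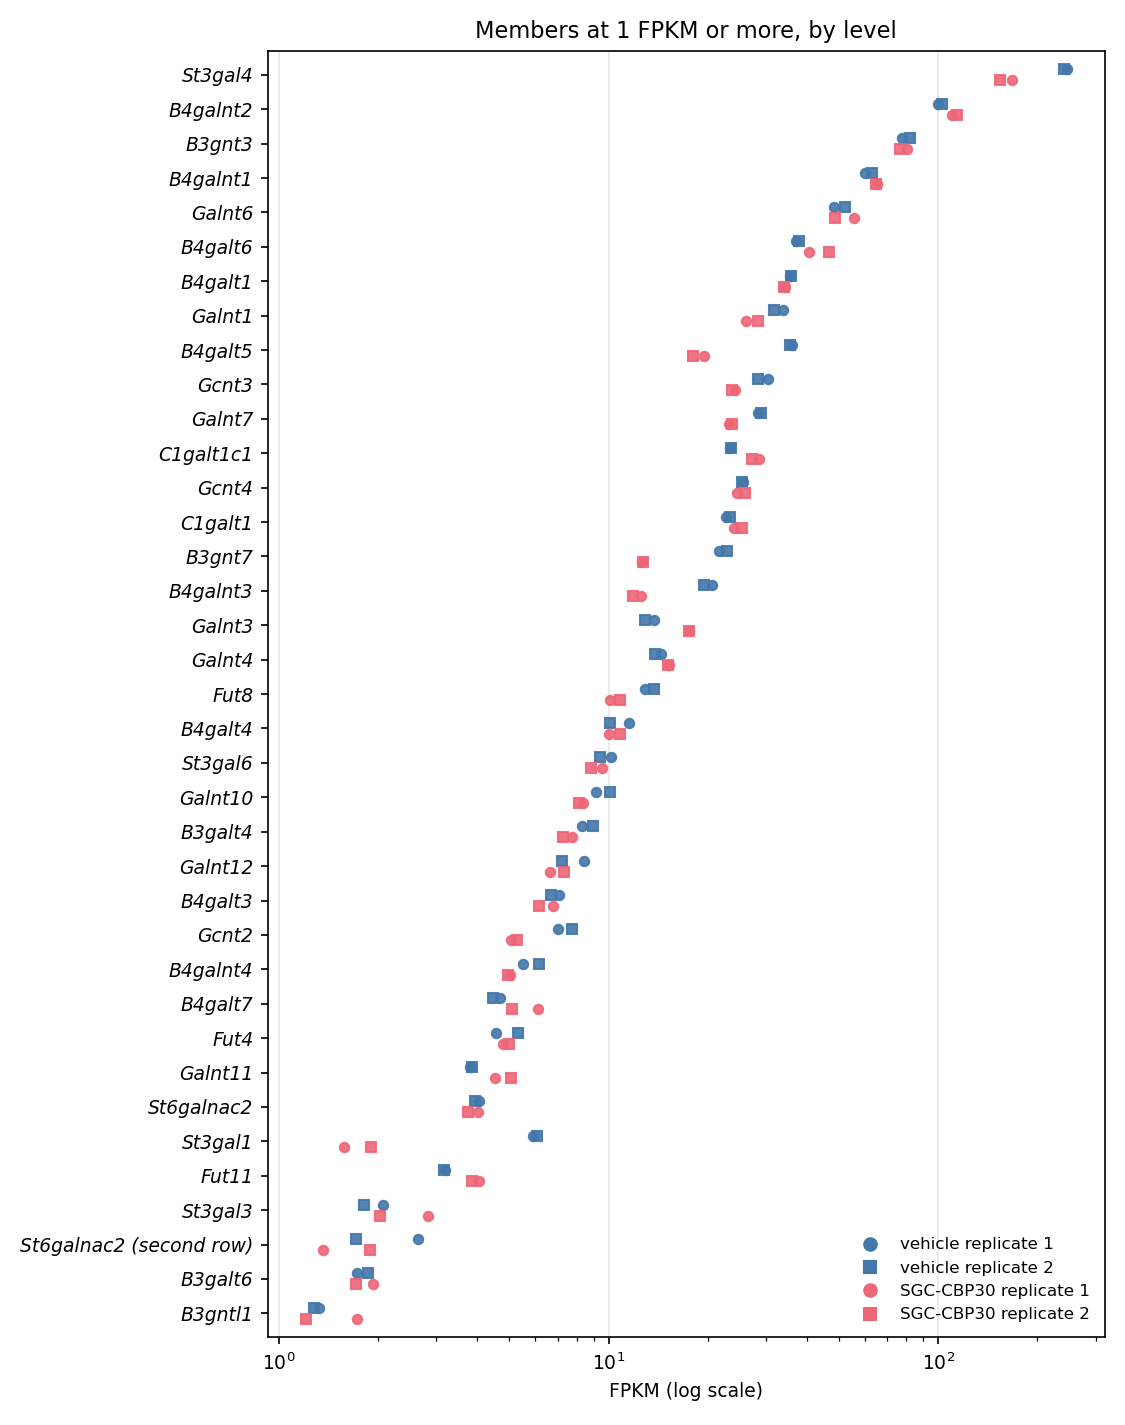
FPKM of each library (x axis, log scale) for the 37 members with a mean of at least 1 FPKM, ordered by mean level. Circles are replicate 1, squares replicate 2, blue vehicle and red SGC-CBP30. St3gal4 stands highest in every library, and St3gal1, B4galt5, B3gnt7 and B4galnt3 show the widest gaps between the groups.

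Among the fucosyltransferases, Fut8 fell and the capping enzymes of the gut were weakly expressed. Fut8, which places the core fucose on N-glycans and is not a mucin enzyme, led the class with 103 and 109 CPM in vehicle and 80.1 and 86.2 CPM in SGC-CBP30. It fell by 0.35 ± 0.07 (edgeR adjusted p = 0.00073), and its largest adjusted p over the alternatives was 0.0488. Fut2, the secretor enzyme that makes the H antigen in the gut, had 62 and 54 counts in vehicle and 83 and 80 counts in SGC-CBP30. The groups did not overlap, but at these counts the log2 fold change of 0.45 ± 0.26 did not pass the threshold (edgeR adjusted p = 0.202).

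Fut4, a Lewis x enzyme gene, had 18.7 and 21.7 CPM in vehicle and 19.6 and 20.4 CPM in SGC-CBP30 (log2 fold change -0.010 ± 0.124). Fut11 had 0.31 ± 0.13 and passed the threshold with library totals as the scale (edgeR adjusted p = 0.0299). Fut7, a sialyl Lewis x enzyme gene, had 10 and 5 counts in vehicle and 1 and 0 counts in SGC-CBP30. It was too low to be tested and did not pass when the filter was removed (edgeR adjusted p = 0.0798). Fut1, Fut9 and Fut10 had 0 to 10 counts. Of the 4 tested class members, 1 fell and 3 did not pass the threshold.

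The α2,3-sialyltransferases held both the most abundant member and the one with the largest fall. St3gal1 (ENSMUSG00000013846, GRCm38 chr15:67102875-67176830, minus strand) adds sialic acid to the galactose of core 1. It had 719 and 667 counts in vehicle and 184 and 230 counts in SGC-CBP30, or 40.7 and 41.8 against 10.8 and 13.1 CPM. The groups lay far apart, and the gene fell by 1.78 ± 0.12 on the log2 scale, or 3.45-fold (edgeR adjusted p = 1.5e-11). Over the alternatives the log2 fold change stayed between -1.93 and -1.66, with a largest adjusted p of 7.3e-11.

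St3gal4 (ENSMUSG00000032038, GRCm38 chr9:35046576-35119268, minus strand), which caps N-acetyllactosamine and feeds the sialyl Lewis antigens, had 723 and 707 CPM in vehicle and 492 and 454 CPM in SGC-CBP30. It fell by 0.60 ± 0.06, or 1.51-fold (edgeR adjusted p = 1.7e-08). Both SGC-CBP30 libraries lay below both vehicle libraries, and St3gal4 stayed the highest of all members in FPKM in both groups, at 243 ± 3.02 and 161 ± 9.33 FPKM. The noncoding gene 4930581F22Rik lies on the other strand over 14.1% of St3gal4 exonic bases, had 163 and 205 counts in vehicle and 117 and 139 in SGC-CBP30, and was lower as well (log2 fold change -0.57, edgeR adjusted p = 0.0227). Whether counting used strand is not given in the sources used here.

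The other α2,3 enzymes did not pass the threshold. St3gal6, which like St3gal4 acts on N-acetyllactosamine, had 63.2 and 58.3 CPM in vehicle and 59.0 and 54.9 CPM in SGC-CBP30 (log2 fold change -0.094 ± 0.082). St3gal3 had 102 and 80 counts in vehicle and 134 and 99 counts in SGC-CBP30 (0.32 ± 0.22), and St3gal2, which acts on core 1 like St3gal1, had 12 and 27 against 29 and 30 counts (0.54 ± 0.46). Per length, St3gal1 went from 5.99 ± 0.133 to 1.74 ± 0.234 FPKM and St3gal2 from 0.234 ± 0.142 to 0.337 ± 0.000356 FPKM (SD, n = 2 each), so St3gal1 stayed the higher of the core 1 pair. The summed class level went from 261 ± 3.46 FPKM in vehicle to 175 ± 10.1 FPKM in SGC-CBP30, a ratio of 0.669, and St3gal4 held 92.2% to 93.2% of it in each library.

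The α2,6 and α2,8 sialyltransferases were scarce. St6gal1, which caps N-glycans in many tissues, had 5 and 2 counts in vehicle and 2 and 1 in SGC-CBP30, and St6gal2 had 0 to 2. In the St6galnac class the longer St6galnac2 gene led, at 3.997 ± 0.0821 FPKM in vehicle and 3.88 ± 0.180 FPKM in SGC-CBP30 (log2 fold change -0.043 ± 0.115). The second St6galnac2 entry, ENSMUSG00000110170, shares 22.8% of its exonic bases with the first, so the split of reads between them is uncertain (-0.43 ± 0.31). St6galnac4 had 6 to 19 counts (0.34 ± 0.59), and St6galnac5 and St6galnac6 had 0 to 7.

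St8sia1, which makes the ganglioside GD3, had 37 and 36 counts in vehicle and 12 and 26 counts in SGC-CBP30. Its log2 fold change of -0.98 ± 0.43 did not pass the threshold (edgeR adjusted p = 0.0879). Leaving out SGC-CBP30 replicate 2 gave -1.61 (edgeR adjusted p = 0.0242) and leaving out replicate 1 gave -0.55 (0.454), so the size rested on single libraries. St8sia3 had -0.62 ± 0.66 on 4 to 14 counts, and St8sia4 and St8sia6 had 2 to 8. A further 8 genes that fit the name rule, among them St6galnac1, the sialyl Tn enzyme gene, and St3gal5, the GM3 enzyme gene, had 0 counts in every library. A count of 0 allows up to 3 counts, or 0.166 to 0.183 CPM per library, from counting error alone. B3galt1, B3gnt4, Galntl5, Galnt17, St6galnac3 and St8sia2 were the others. Exons of Diablo, a gene with 48 to 71 counts, lie on the other strand over 93.2% of the exonic bases of B3gnt4, so its 0 is uncertain.

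**Figure D3:**
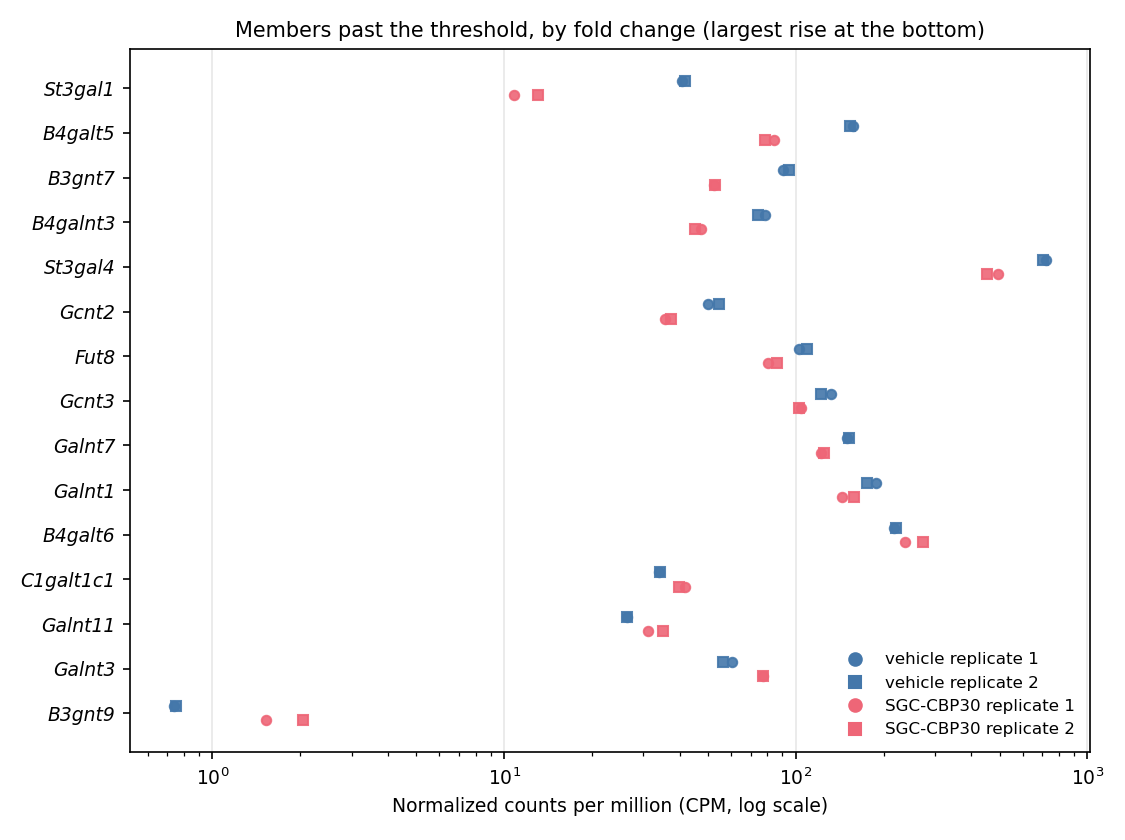
Normalized CPM of each library (x axis, log scale) for the 15 members past the threshold, ordered by log2 fold change. Circles are replicate 1, squares replicate 2, blue vehicle and red SGC-CBP30. In each of the 15 rows the red points lie on one side of the blue ones, and St3gal1 shows the widest gap.

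Called shares rose with depth among all tested genes, and among members they were highest at the greatest depth. The members' share did not rise throughout: it was 11.1% under 50 mean counts and 0.0% from 50 to 200, with 9 tested members in each. All 19 members with a mean of at least 1000 counts had standard errors of 0.059 to 0.082 on the log2 scale, and 10 of them passed the threshold, 2 higher and 8 lower (52.6%), against 46.4% of the 3548 genes of that depth, 19.3% higher and 27.2% lower. The 14 members of 200 to 1000 mean counts had standard errors of 0.084 to 0.15, with 2 higher and 2 lower (28.6%, against 34.1% of genes of that depth). Of the 18 tested members below that, with standard errors of 0.22 to 0.69, only B3gnt9 passed (5.6%, against 17.2%). At this depth smaller changes of Fut2, B3galt5, St8sia1 and similar genes were not detectable. The groups did not overlap in 31 of the 51 tested members (60.8%), against 63.1% of all tested genes.

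By level, 20 members exceeded 10 FPKM on average, 17 lay between 1 and 10 FPKM and 33 lay below 1 FPKM. Of the 20, 3 rose and 8 fell (55.0% called, 15.0% higher and 40.0% lower). Of the 4500 tested genes above 10 FPKM 43.8% were called, 18.3% higher and 25.5% lower. Of the 17, 1 rose and 2 fell (17.6%), against 27.8% of all tested genes at that level, 14.3% higher and 13.5% lower. Of the 14 tested members below 1 FPKM, 1 rose (7.1%), against 15.4% called of all tested genes at that level. The summed CPM of all members was 3726 and 3731 in vehicle and 3291 and 3277 in SGC-CBP30, a difference of -444 CPM. St3gal4 alone differed by -242 CPM and B4galt5 by -73.8 CPM, while the 36 members not past the threshold together differed by 23.2 CPM. Without St3gal4 the sums were 3003 and 3024 against 2799 and 2824 CPM.

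**Figure D4:**
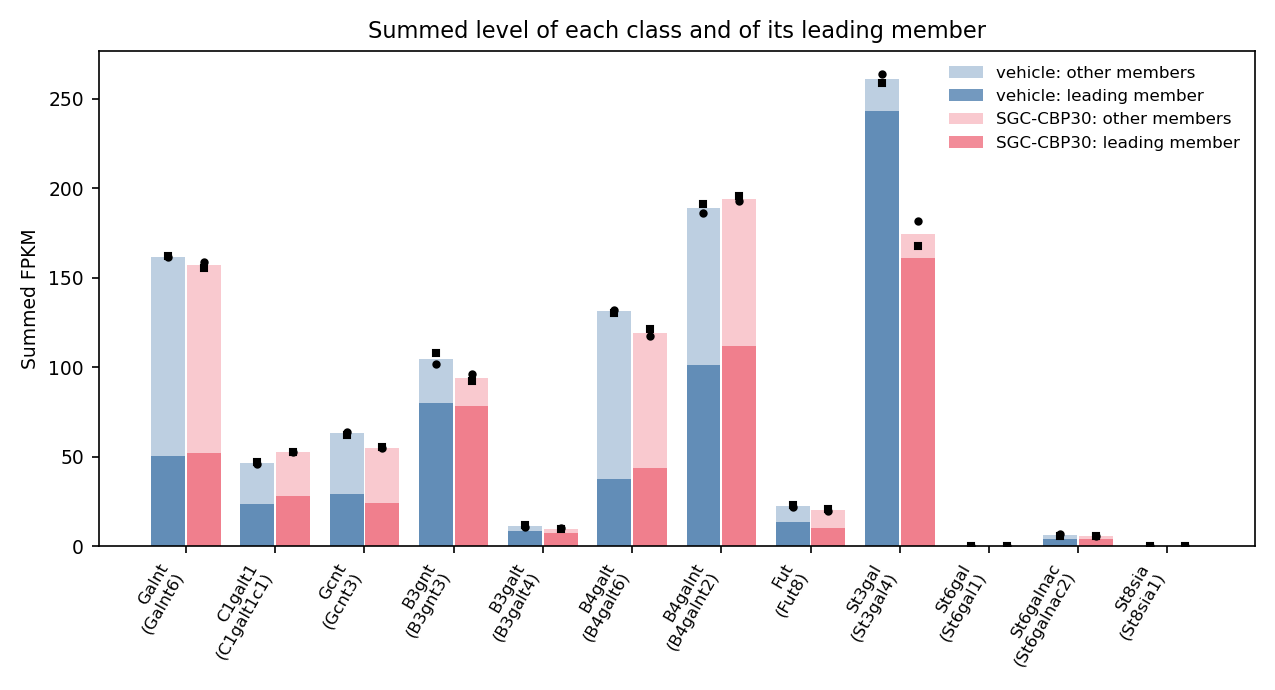
Mean summed FPKM of each class (bars), with its leading member in the darker part and single libraries as black marks (circle replicate 1, square replicate 2). The St3gal class shows the widest gap between the groups, 261 against 175 FPKM, nearly all of it in St3gal4.

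The donors and carriers of sugar nucleotides, from a list of 23 genes of which 22 were tested, moved in both directions: 4 rose, 5 fell and 13 did not pass the threshold (median log2 fold change -0.049). The counts of this and the next lists stand beside 13.6% higher and 16.3% lower of all tested genes, whose median was 0.0096. Uap1, which makes UDP-N-acetylglucosamine and UDP-N-acetylgalactosamine, fell by 0.57 ± 0.08, and the galactokinase gene Galk1 by 0.57 ± 0.09. Slc35c1, the Golgi GDP-fucose transporter, rose by 0.40 ± 0.07. Gne, Slc35a1 and Cmas, of the sialic acid branch, were chosen after their values were seen, and Nans and Nanp of that branch did not pass the threshold (log2 fold changes 0.18 ± 0.08 and -0.91 ± 0.66). Gne, the rate-limiting enzyme of sialic acid synthesis, had 77.6 ± 3.95 CPM in vehicle and 59.4 ± 4.73 CPM in SGC-CBP30 and fell by 0.39 ± 0.08. Slc35a1, which carries CMP-sialic acid into the Golgi, had 24.5 ± 1.002 and 37.6 ± 1.86 CPM (SD, n = 2 each) and rose by 0.62 ± 0.10. Cmas, which makes CMP-sialic acid, rose by 0.22 ± 0.06, which did not pass once either vehicle library was left out (edgeR adjusted p = 0.171 without the first and 0.127 without the second).

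Of 23 genes that sulfate, trim or further cap glycans, 15 were tested, 2 rose, 5 fell and 8 did not pass the threshold (median -0.041). Neu3, the plasma membrane sialidase that acts on gangliosides, fell by 0.86 ± 0.08, from 96.9 ± 9.47 to 53.2 ± 0.858 CPM. The sulfotransferase genes Chst4 and Gal3st2, which sulfate N-acetylglucosamine and galactose, fell by 0.92 ± 0.09 and 0.76 ± 0.08. Among 14 mucins and mucin-like acceptors 8 were tested, 2 rose, 3 fell and 3 did not pass (median -0.26). The membrane mucin genes Muc4, Muc13 and Muc3a fell by 1.59 ± 0.13, 0.51 ± 0.06 and 0.83 ± 0.12, and Muc3, of which Muc3a may be a close copy with shared reads, rose by 0.31 ± 0.08. The adjusted p of Muc3 was 0.128 in DESeq2. The secreted mucin gene Muc2 rose by 0.24 ± 0.07, which did not pass once either vehicle library was left out (edgeR adjusted p = 0.0728 without the first and 0.114 without the second). Muc2 and Muc3 were named after their values were seen.

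Markers of the epithelial cell types are given beside these enzymes as levels, and within most lists they differed in direction or did not pass the threshold. The 8 goblet cell markers, the cells that secrete gel-forming mucin, summed to 4624 and 4493 CPM in vehicle and 4740 and 4781 CPM in SGC-CBP30, with 1 higher, 2 lower and 5 not past the threshold. The 7 enterocyte markers summed to 32366 and 32686 against 25951 and 23950 CPM, with 1 higher, 3 lower and 3 not past. The sucrase-isomaltase gene Sis alone went from 15129 and 15101 to 6787 and 7781 CPM, and the other 6 enterocyte markers summed to 17238 and 17585 against 19164 and 16169 CPM, with overlap. The 3 Paneth markers summed to 2601 and 2514 against 1987 and 1948 CPM, with 2 lower, the 4 stem cell markers to 301 and 272 against 164 and 173 CPM, with 1 higher (Lgr5) and 2 lower, and the 4 tuft markers to 32.1 and 34.9 against 25.4 and 26.1 CPM, with 1 lower. The 2 lower stem cell markers were Olfm4 and Ascl2. Ascl2 went from 7.42 and 6.58 to 2.88 and 4.21 CPM (log2 fold change -0.98 ± 0.24). Olfm4 led the stem cell sum, and without it the sums were 96.9 and 93.3 against 109 and 116 CPM. Those sums were mostly Smoc2 and Lgr5, so they do not show the fall of Ascl2. The 3 enteroendocrine markers summed to 459.9 and 436 against 529 and 459 CPM, with none past the threshold by edgeR. None of these lists had a marker at 0 in any group, and their part in the enzymes' changes was likewise not tested.

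In the authors' deposited table, an adjusted p under 0.05 was given for 12 members, 2 higher and 10 lower, where 11.4% of all genes with a p had one. All 12 were also called here, and the 3 called only here were B3gnt9, C1galt1c1 and Galnt11, with adjusted p of 0.223, 0.200 and 0.126 in the authors' deposited table.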

How the data were processed

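Values came from 1 deposited table. It holds, per the file headers, raw counts and FPKM for each library, the authors' group means (a signal on a normalized count scale), and the authors' log2 fold change, p-value and adjusted p-value by an unnamed test. Listed without roles in the submitters' processing notes are featureCounts 1.5.0-p3, HISAT2 2.0.5, StringTie 1.3.3b and build mm9. Coordinates are those of GRCm38: 67 of 70 members had identical ones in GENCODE M21. The handling of strand and multi-mapped reads is not given in the sources used here. The table, held in part, stops within its last line, among genes with no counts.

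In R 4.3.3, edgeR 4.0.16 compared the groups by its robust quasi-likelihood test on counts kept by filterByExpr, with TMM factors of 0.978, 0.972, 1.02 and 1.03, Benjamini-Hochberg adjustment over 14684 genes, threshold 0.05, no covariate. The fit was tested on simulated data. Standard errors are the log2 fold change over the square root of F. CPM use the TMM factors. Alternatives were DESeq2 1.42.0, library totals, no filter, at least 50 counts in 2 libraries, each library left out, and the replicate block. Floors cover counting error only.

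Named are the members past the threshold, the highest by FPKM in each class, and in each of 3 pathway lists up to 3 called genes of smallest p. The remaining members, named outside this rule so that each is accounted for, are given by values or ranges. Ratios between members restate the changes of the single genes and are no added support. The member rule reads no response, but the enzyme families and the lists were chosen with earlier results of these data known.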

Additional observations from a re-analysis of the deposited data

How the results depend on the processing

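Over the 9 alternatives, 415 of 445 log2 fold changes of tested members stayed past or not past the threshold, 20 lost a call, 10 gained one and 0 reversed while past the threshold. The 415 do not measure direction: members not past the threshold could change sign. Galnt2 went from 0.25 in the main run to -0.18 without vehicle replicate 2. Of the 15 members past the threshold, 8 stayed so in every alternative (7 lower: St3gal1, B4galt5, B3gnt7, St3gal4, B4galnt3, Gcnt2 and Fut8, and 1 higher: Galnt3). The other 7 lost the call at least once, and the cause was not tested. Dropping a library leaves fewer samples, but Galnt11, C1galt1c1 and B3gnt9 also lost the call in DESeq2, with every library kept. The count of members higher was 2 in DESeq2, 8 with library totals as the scale and 3 with at least 50 counts in 2 libraries. By class, the higher count in DESeq2 was 1 for Galnt, 0 for C1galt1 and 0 for B3gnt. With library totals it was 2 for C1galt1, 1 for B4galnt and 1 for Fut, and with at least 50 counts in 2 libraries 0 for C1galt1 and 0 for B3gnt, where B3gnt9 was no longer tested. Leaving out each library gave 2899 to 4557 genes called in all (without vehicle replicate 2 and without SGC-CBP30 replicate 2), 1 to 4 members higher and 8 to 11 lower. By class those ranges were 1 to 2 higher and 1 to 3 lower for Galnt, 0 to 1 higher for C1galt1, B4galt and B4galnt, 1 to 2 lower for Gcnt, 0 to 0 higher for B3gnt and 0 to 1 lower for St8sia. Without vehicle replicate 1 or 2 only 1 member was higher. With 1 library in a group, that library is assumed to vary like the other group. DESeq2 called 3061 genes and gave some low members no adjusted p.

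Whether same-numbered libraries form pairs is not known. Deviations from the group means of same-numbered libraries correlated at -0.024 across genes, which are not independent replicates. So few libraries cannot decide the question. With the replicate block 4703 genes were called, 5 members higher and 11 lower, Galnt10 being the member added (edgeR adjusted p = 0.0417). The block changed no other member's call.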
